A study of Mus musculus with 12 samples.

Results

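The genes described here, 10 in number, belong to the synaptonemal complex and to the HORMA domain proteins of meiotic chromosome axes, and were followed across Phb-depleted and control cells. They are Sycp1, Sycp2, Sycp3, Syce1, Syce2, Syce3, Tex12, 4930447C04Rik, Hormad1 and Hormad2. Each was taken by its gene name from the deposited tables, using the row with the highest mean where a name stood on several rows. All 10 were found among 36823 named spermatocyte rows and 6 among 24711 named rows of the GC2 line. Expression was measured by RNA-seq in 12 mouse libraries, 3 in each of 4 groups. The groups were control GC2 cells, PHB Knockdown GC2 cells, spermatocytes of control mice and spermatocytes of conditional Phb knock-out mice. GC2 is an immortalised line described as spermatocyte-like, and Phb encodes prohibitin, a scaffold protein of the inner mitochondrial membrane. Spermatocytes came from enzyme-digested tubules and were enriched by flow sorting on a Hoechst DNA stain. The sources used here do not give the Cre driver, the age of the mice, the number of animals behind a library or the way the knockdown was made.

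The synaptonemal complex is the protein ladder that holds paired homologous chromosomes together during meiotic prophase. SYCP2 and SYCP3 build its lateral elements along each chromosome axis, SYCP1 forms the transverse filaments, and the central element contains SYCE1, SYCE2, SYCE3, TEX12 and SIX6OS1, the product of 4930447C04Rik. HORMAD1 and HORMAD2 mark axes that have not yet synapsed and are removed from synapsed axes with the help of the ATPase TRIP13. In mice, loss of the central element or of SYCP1 stops spermatocytes before they complete synapsis.

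On GRCm38, by GENCODE M21, all 10 genes are autosomal protein-coding genes. Sycp1 spans chr3:102818499-102936100 (minus strand), Sycp2 chr2:178345293-178407685 (minus strand) and Sycp3 chr10:88459569-88473236 (plus strand). Of the central element genes, Syce1 spans chr7:140777229-140787852 (minus strand), Syce2 chr8:84872111-84888221 (plus strand), Syce3 chr15:89390174-89410503 (minus strand), Tex12 chr9:50556819-50561325 (minus strand) and 4930447C04Rik chr12:72881109-72940774 (minus strand). Hormad1 spans chr3:95559677-95587671 (plus strand) and Hormad2 chr11:4345814-4441105 (minus strand).

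Before the values, 4 promoters are shown, those of the genes whose window holds the letters AACTGNC on either strand, letters of the MYB family site. Of these, Syce1 and Sycp2 had the largest falls in the knockout. Of the other pair, Syce2 was not called and Hormad1 has no row of its own. A link between these letters and the falls was not tested. The sequences are the bases before the annotated start, 5′ to 3′ on the gene's strand, from RefSeq on GRCm38.p6, without bases that GENCODE M21 places in an exon. Capitals mark AACTGNC or its reverse complement in each, which in Hormad1 and Syce2 stands on the opposite strand, and GGCGGGA, the E2F family letters, in Hormad1.
Syce1 (chr7:140787855-140788104, minus strand): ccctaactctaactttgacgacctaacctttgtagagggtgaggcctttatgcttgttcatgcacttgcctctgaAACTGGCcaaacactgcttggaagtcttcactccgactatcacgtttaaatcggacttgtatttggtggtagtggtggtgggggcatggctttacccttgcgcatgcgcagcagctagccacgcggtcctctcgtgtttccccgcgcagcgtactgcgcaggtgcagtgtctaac
Sycp2 (chr2:178407686-178407908, minus strand): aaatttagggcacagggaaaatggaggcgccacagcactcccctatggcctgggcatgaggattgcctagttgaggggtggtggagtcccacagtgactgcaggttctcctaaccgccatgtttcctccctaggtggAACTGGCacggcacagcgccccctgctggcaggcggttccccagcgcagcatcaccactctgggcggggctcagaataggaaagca
Hormad1 (chr3:95559427-95559676, plus strand): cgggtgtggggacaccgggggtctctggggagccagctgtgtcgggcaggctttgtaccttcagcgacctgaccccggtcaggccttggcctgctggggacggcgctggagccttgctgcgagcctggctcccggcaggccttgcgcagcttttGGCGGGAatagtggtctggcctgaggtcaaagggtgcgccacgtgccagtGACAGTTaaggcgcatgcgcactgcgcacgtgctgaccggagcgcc
Syce2 (chr8:84871861-84872110, plus strand): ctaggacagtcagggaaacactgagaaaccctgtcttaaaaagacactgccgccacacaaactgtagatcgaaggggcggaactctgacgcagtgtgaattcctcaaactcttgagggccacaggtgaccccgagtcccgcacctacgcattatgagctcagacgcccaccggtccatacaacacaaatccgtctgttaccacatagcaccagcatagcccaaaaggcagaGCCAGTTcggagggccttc

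All 10 genes had an entry in the promoter table, 3 of them with more than 1 window, which gave 13 windows of 250 bases before and 50 after a start. AACTGNC, searched on both strands, stood in 6 of the 13 windows, from 4 genes, and in 12.8% of all 32851 windows of this length. In Syce1 and Sycp2 it read AACTGGC on the gene's own strand, at -175 and -113 from the start. CNCCTCAG, letters reported for the meiotic entry factors STRA8 and MEIOSIN, stood in windows of Sycp1, Syce2, Tex12, Hormad2 and 4930447C04Rik, which were 5 windows, and in 7.94% of all windows. GGCGGGA stood in windows of Hormad1, Syce2 and Tex12, 4 in number, and in 11.3% of all windows. The E box CANNTG stood in 11 member windows and 72.3% of all. The CRE letters TGACGTCA stood in 0 member windows and 1.79% of all. Members had between 5 and 33 CpG dinucleotides per window, where the median window had 7, and 54.7% to 69.3% G and C, where the median was 52.7%. Windows of Hormad1 overlap and hold the same AACTGNC and GGCGGGA matches. Those of Syce2 overlap and hold the same AACTGNC match, so the window counts hold these matches more than once. A match of letters is a description of the sequence and not evidence of a bound site.

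As a check of the labels, Phb fell in knockdown GC2 cells from 56.62, 53.99 and 52.36 to 22.66, 18.37 and 19.02 FPKM (limma adjusted p = 0.00062). In spermatocytes it fell less, from 12.6, 13.35 and 13.86 to 11.81, 11.33 and 11.53 FPKM (limma adjusted p = 0.0074). A fall of this size is a weak check of the label, and its cause was not tested. FPKM is fragments scaled to transcript length and library, so levels of different genes can be set side by side. The authors' tables hold no counts. Steps between low values pointed to about 15100000 to 15700000 fragments per control library and 11200000 to 15400000 per knockout library, but the steps were blurred, so these depths are rough and no counting interval was drawn from them. The knockout libraries also held less spermatid marker RNA and more somatic marker RNA than the control libraries. Summed over 10 spermatid markers they stood at 15.3 to 17.6 FPKM against 945 to 987 in control. Summed over 14 Sertoli cell markers they stood at 3336 to 3524 against 798 to 890, and over 7 Leydig cell markers at 192 to 196 against 19.8 to 20.4. Immune markers, 8 in number, summed to 28.8 to 33.6 against 23.95 to 31.9, and 7 myoid and endothelial markers to 57.3 to 59.5 against 39.7 to 41.2. No marker of these lists was at 0 in all 3 libraries of a spermatocyte group. Mitochondrially encoded rows held 17.1% to 19.5% of the summed FPKM against 12.2% to 13.6%. The part of these shifts in the results below was not tested. In such bulk samples fewer cells of a type and less RNA per cell cannot be told apart.

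In GC2 cells the meiotic chromosome genes were at or near 0 whether or not Phb was depleted, and none of the 6 with a row reached 1 FPKM in any library on the row used. Hormad2 stood at 0.18, 0.21 and 0.12 FPKM in control and 0.07, 0.13 and 0.06 in knockdown libraries, and these groups overlapped. Syce2 stood at 0.12, 0.11 and 0.11 in control and 0.24, 0.41 and 0.2 in knockdown libraries, which did not overlap. Groups did not overlap in 44.9% of all rows tested in GC2. Those rows passed a filter of 1 FPKM that Syce2 did not, so the share is not a like background for it. A further assembled Syce2 row held 1.1 FPKM in control replicate 2 and 0 in the other libraries. Sycp3 reached at most 0.22 FPKM, Sycp1 0.05 and Sycp2 0.02, and Tex12 was listed at 0 in all 6 GC2 libraries. Syce1, Syce3, 4930447C04Rik and Hormad1 had no row in the GC2 tables used here. The row that Hormad1 shares in spermatocytes appears in GC2 under its neighbours Golph3l and Gm42671 alone. Apart from Sycp3, 3 of 5 germ cell markers had a GC2 row (Ddx4, Dazl and Stk31), and they summed to 0.04 to 0.14 FPKM in the 6 libraries, so these 3 germ cell transcripts were near 0 in a line labelled as a spermatocyte line. No member passed the filter of 1 FPKM in at least 3 of 6 libraries, so none was tested in the comparison in which 24.5% of rows were called. Without that filter limma called 0 of 5 members, Tex12 being at 0 throughout, and 2 of them had an unadjusted p under 0.05. These were Syce2, with a log2 fold change of 0.20 (limma adjusted p = 0.13), and Hormad2, with -0.11 (limma adjusted p = 0.19).

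In knockout spermatocytes the genes of the complex did not move together. Syce1 fell about 8-fold and Sycp2 about 2.7-fold. Sycp1, Sycp3 and Syce3 fell by smaller amounts, a direction that turned when libraries were scaled to germ cell markers or to Ddx4, as did that of Sycp2 with Ddx4. Syce2, Tex12 and Hormad2 were not called, and 4930447C04Rik rose. Counting the row that Hormad1 shares with other genes, 6 rows fell and 1 rose at a limma adjusted p under 0.05. Over all 15957 rows tested, 38.5% fell and 40.9% rose, 79.4% in all, so the 7 of 10 members called are no larger a share than that over all rows. The split of the members into 6 and 1 is given as a description. The median log2 fold change of the members was -0.21, against 0.047 over all rows. A fall of at least 1 on the log2 scale, at a limma adjusted p under 0.05, was seen in 2 members, Syce1 and Sycp2, and in 21.6% of all rows. Groups of libraries did not overlap in 7 of the 10 members and in 81.8% of all rows. Log2 fold changes were taken from deposited FPKM with 1 added, unless another scaling is named.

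**Figure D1:**
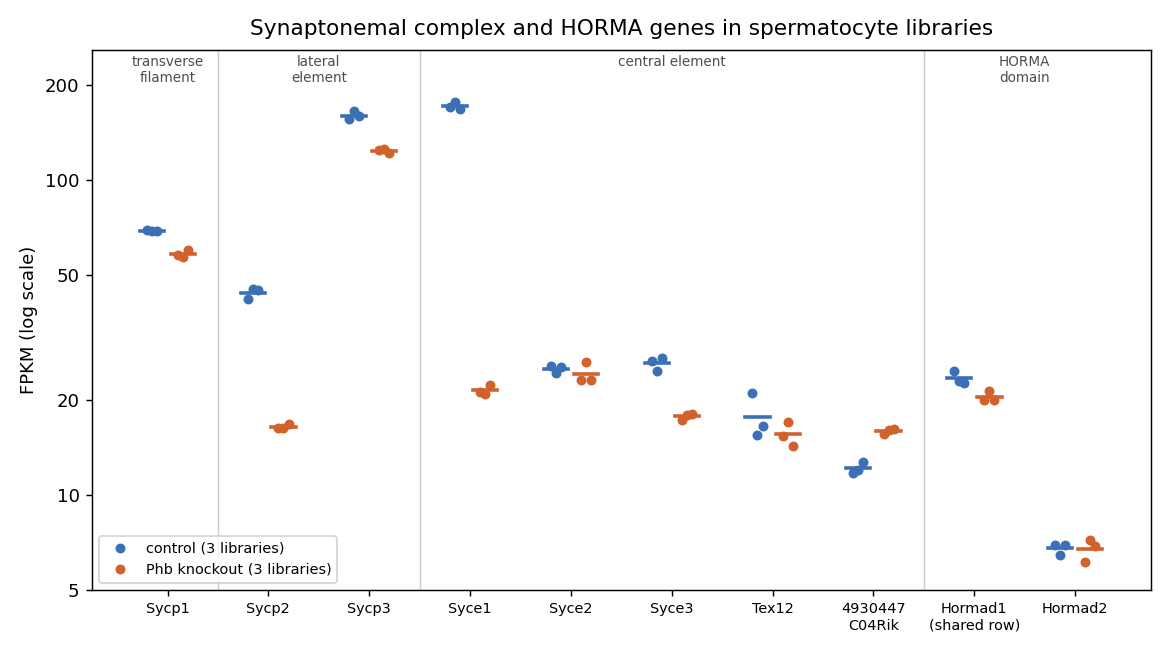
FPKM on a log scale of each gene in the 3 control (blue) and 3 Phb knockout (orange) spermatocyte libraries, with bars at the group means and genes ordered by their place in the complex. Syce1 drops from the top of the panel to about 21 FPKM and Sycp2 to about 16, while Syce2, Tex12 and Hormad2 overlap between the groups and 4930447C04Rik is higher in knockout.

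The lateral element genes diverged. Sycp2, which encodes the large partner that anchors SYCP3 to the axis, stood at 42.02, 45.06 and 44.72 FPKM in control and 16.33, 16.28 and 16.8 in knockout libraries. All knockout values lay far below all control values, with a log2 fold change of -1.36 (95% interval -1.45 to -1.28, limma adjusted p = 2.8e-07). Sycp3, the filament-forming lateral element gene used to stain meiotic chromosome cores, stood at 156.3, 165.4 and 159.69 FPKM in control and 124.37, 125.41 and 122.04 in knockout. It fell by 0.37 on the log2 scale (95% interval -0.44 to -0.30, limma adjusted p = 3.9e-05) without overlap between the groups. The antisense neighbour Chpt1, which overlaps Sycp3 on the other strand, stood at 4.60 ± 0.80 FPKM in control and 4.99 ± 0.029 in knockout (SD, n = 3 libraries each).

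Sycp1, the transverse filament gene, stood at 69.23, 68.98 and 68.77 FPKM in control and 58.02, 57.21 and 59.86 in knockout. The groups did not overlap and the log2 fold change was -0.24 (95% interval -0.30 to -0.18, limma adjusted p = 0.00018). The pseudogene row Sycp1-ps1 stood at 0.97, 0.91 and 0.83 FPKM in control and 0.09, 0.04 and 0.09 in knockout. The sources used here do not say how reads were shared between this copy and Sycp1.

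The central element held both the largest fall and the only rise. Syce1, whose product links the central element to the transverse filaments, stood at 171.18, 176.57 and 168.73 FPKM in control and 21.28, 20.89 and 22.3 in knockout. Its log2 fold change was -2.95 (95% interval -3.03 to -2.86, limma adjusted p = 1.5e-08), and 5.80% of all rows tested fell as far or further. 4930447C04Rik, whose product SIX6OS1 binds SYCE1, moved the other way, from 11.75, 12.03 and 12.75 to 15.65, 16.06 and 16.24 FPKM. It rose by 0.37 on the log2 scale (95% interval 0.27 to 0.46, limma adjusted p = 0.00019), with every knockout library above every control library. Its overlapping opposite-strand gene Six6 was at or below 0.03 FPKM in all 6 libraries.

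Syce3, a small protein gene needed to load the other central element proteins, stood at 26.58, 24.7 and 27.33 FPKM in control and 17.34, 18 and 18.04 in knockout, with no overlap. It fell by 0.53 on the log2 scale (95% interval -0.64 to -0.42, limma adjusted p = 5.6e-05). Syce2 and Tex12, whose products assemble together into the fibres that extend the complex, were not called. Syce2 stood at 25.7, 24.39 and 25.51 FPKM in control and 23.21, 26.42 and 23.23 in knockout, with knockout replicate 2 the highest of all 6 libraries (log2 fold change -0.053, 95% interval -0.19 to 0.087, limma adjusted p = 0.42). Without that library Syce2 was called lower, at -0.11 (limma adjusted p = 0.032). Tex12 stood at 21.04, 15.5 and 16.55 FPKM in control and 15.43, 17.09 and 14.33 in knockout. These groups overlapped and the 95% interval on the log2 scale was the widest among the members (log2 fold change -0.16, 95% interval -0.46 to 0.14, limma adjusted p = 0.26). Its fold change was -0.038 without control replicate 1, the highest library, and -0.25 without control replicate 2, and it was not called without any 1 library. Gcdh, which overlaps Syce2 on the other strand, rose from 5.51 ± 0.38 to 13.5 ± 0.36 FPKM (SD, n = 3, limma adjusted p = 3.2e-06). Il18, which overlaps Tex12 on the other strand, was at 1.24 ± 0.36 and 1.69 ± 0.35. The library kit marks strand, but the sources used here do not say whether counting used it, so reads of such pairs may be mixed.

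Of the HORMA domain genes, Hormad2 stood at 6.94, 6.44 and 6.93 FPKM in control and 6.12, 7.2 and 6.9 in knockout, the lowest level of the members in both groups. These values overlapped (log2 fold change -0.0075, 95% interval -0.17 to 0.15, limma adjusted p = 0.92). The row of Hormad1 also names Golph3l, a Golgi protein gene just downstream, and Gm42671, so its value cannot be given to Hormad1. That row stood at 24.72, 23.06 and 22.69 FPKM in control and 19.97, 21.47 and 20.02 in knockout, a log2 fold change of -0.19 (95% interval -0.30 to -0.075, limma adjusted p = 0.0097). The call was lost with median centring, quantile normalization, removal of mitochondrial rows, and scaling to Dazl or Tex101 (limma adjusted p = 0.58, 0.17, 0.071, 0.12 and 0.15).

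How far these changes reach depends on what the libraries are scaled to, and only Syce1 and 4930447C04Rik kept their direction and their call under every alternative tried. With the libraries scaled to the summed FPKM of the germ cell markers Ddx4, Dazl, Mael, Stk31 and Tex101, that sum being 833 to 854 in control and 346 to 349 in knockout, 2 members fell and 8 rose. The median of all rows was then 1.07 and that of the members 1.03. Sycp1 stood at 1.02, Sycp3 at 0.90 and Syce3 at 0.69 on that log2 scale, while Syce1 was still lower at -1.70 and Sycp2 at -0.13. The markers themselves moved unequally. Mael, a piRNA pathway gene, fell from 412 ± 3.67 to 63.2 ± 1.76 FPKM and the helicase gene Ddx4 from 157 ± 3.84 to 47.8 ± 1.67, whereas Dazl, which encodes an RNA-binding protein, fell only from 112 ± 1.85 to 105 ± 1.10 (SD, n = 3). Scaled to Dazl alone, an alternative chosen after seeing the data, 5 members fell and 1 rose. Scaled to Ddx4 alone, also chosen afterwards, 1 fell (Syce1, at -1.27) and 9 rose, Sycp2 among them at 0.29.

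**Figure D2:**
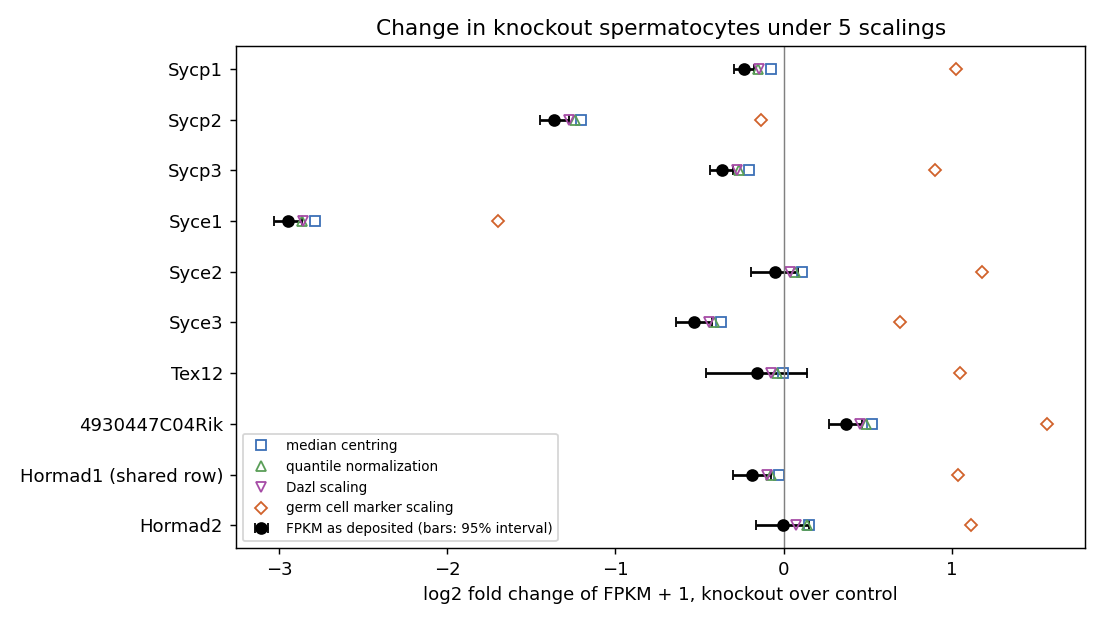
Log2 fold change of FPKM + 1 in knockout over control spermatocytes for each gene, as deposited (black, bars are 95% intervals) and under 4 other scalings (open symbols). Syce1 lies left of 0 and 4930447C04Rik right of 0 in all 5, whereas scaling to 5 germ cell markers moves 7 of the others from the left of 0 to the right. Syce2 and Hormad2 are right of 0 under all 4 other scalings.

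Ratios inside a library do not depend on its scaling. The FPKM ratio of Syce1 to 4930447C04Rik, whose products bind each other, was 14.6, 14.7 and 13.2 in control and 1.36, 1.30 and 1.37 in knockout libraries. That of Sycp2 to Sycp3 was 0.269, 0.272 and 0.280 in control and 0.131, 0.130 and 0.138 in knockout. In both pairs every knockout ratio lay below every control ratio. The ratio of Syce2 to Tex12 was 1.22, 1.57 and 1.54 in control and 1.50, 1.55 and 1.62 in knockout, and these overlapped. These pairs were chosen after their values were seen and are a description.

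Set against Sycp3 within each library, 7 of the other 9 members had groups that did not overlap, as did 86.7% of all rows tested. Relative to Sycp3, Syce1 changed by -2.58 on the log2 scale, Sycp2 by -0.99, 4930447C04Rik by 0.74, Hormad2 by 0.36, Syce2 by 0.32 and Sycp1 by 0.13, and the Hormad1 row by 0.18. Each had an exact two-sided permutation p = 0.10, the smallest that 3 against 3 libraries can give, and 0.13 after Benjamini-Hochberg adjustment over the 9 ratios, so none passes 0.05. Syce3 changed by -0.16 and Tex12 by 0.21 with overlap (exact permutation p = 0.20 and 0.30). Set against Sycp1 in place of Sycp3, the changes kept their signs, but that of the Hormad1 row was 0.049, of Tex12 0.076, of Syce2 0.18, of Hormad2 0.23 and of Syce3 -0.29.

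The make-up of the transcript pool shifted. Over the 9 members with a row of their own, the summed level went from 534 ± 4.74 to 301 ± 3.50 FPKM (SD, n = 3). Syce1 made up 32.3% ± 0.49 of that sum in control and 7.15% ± 0.29 in knockout libraries. Sycp3 went from 30.1% ± 0.62 to 41.2% ± 0.53, Sycp1 from 12.9% ± 0.13 to 19.4% ± 0.60, Sycp2 from 8.23% ± 0.28 to 5.48% ± 0.13 and 4930447C04Rik from 2.28% ± 0.10 to 5.32% ± 0.089. In control the order of levels was Syce1, Sycp3, Sycp1, Sycp2, Syce3, Syce2, the Hormad1 row, Tex12, 4930447C04Rik and Hormad2, where Syce3, Syce2 and the Hormad1 row overlapped with their neighbours in the order. In knockout Sycp3 and Sycp1 led, Syce2 followed, and Syce1 came next, with values that overlapped those of the Hormad1 row.

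**Figure D3:**
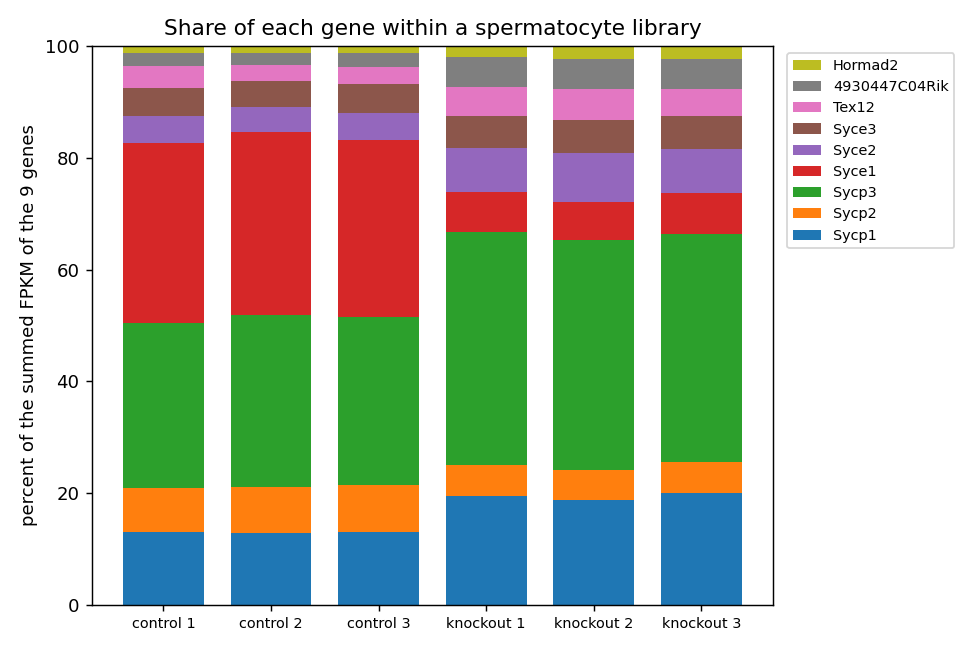
Stacked bars give, for each spermatocyte library, the percent of the summed FPKM held by each of the 9 genes with a row of their own. Syce1 takes about 32% in the control libraries and about 7% in the knockout libraries, and the shares of Sycp3, Sycp1 and 4930447C04Rik are larger in the latter.

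By the root mean square difference of log2(FPKM + 1) over the 6 spermatocyte libraries, among 15957 rows, the nearest row to Syce1 was Ldha at 0.20. Ldha, the lactate dehydrogenase A gene, stood at 198 FPKM in control and 18.7 in knockout. For Sycp2 it was Rnf166 (0.11), for Sycp1 the SUMO-activating enzyme gene Sae1 (0.046), for Sycp3 the cyclophilin gene Ppia (0.087) and for Syce3 Adprh (0.046). The nearest rows to Tex12, Hormad2 and the Hormad1 row were Vti1b (0.10), Dhx37 (0.051) and Nup85 (0.034). No member was the nearest row of another.

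The lists of genes that work with the complex, like its members, held both falls and rises, and their counts stand against the 38.5% lower and 40.9% higher over all rows. Of 16 chromosome axis and cohesin genes, 8 fell and 6 rose, with a median log2 fold change of -0.15. Stag3, the meiotic cohesin subunit gene, fell from 74.5 ± 0.40 to 24.5 ± 1.31 FPKM and Meikin, which protects centromeric cohesin, from 8.93 ± 0.59 to 0.953 ± 0.049. Of 14 synapsis initiation and crossover genes tested, 9 fell and 2 rose (median -0.42), with the crossover factor gene Cntd1 falling from 21.1 ± 0.48 to 1.68 ± 0.085 and Prr19 from 34.8 ± 1.13 to 4.98 ± 0.24. Of 20 HORMA domain partner and checkpoint genes, 12 fell and 2 rose (median -0.24). Mad2l2, itself a HORMA domain gene, fell from 38.8 ± 0.37 to 4.02 ± 0.12 and Mdc1, which spreads the silencing signal over unsynapsed chromatin, from 51.9 ± 0.79 to 19.8 ± 0.21. Trip13, chosen after its value was seen, fell only from 10.9 ± 0.38 to 9.53 ± 0.67 (limma adjusted p = 0.028). Of 16 genes tied to removal of the complex, 10 fell and 3 rose (median -0.50), led by the chaperone gene Hspa2, from 318 ± 1.40 to 30.8 ± 0.72, and the cyclin gene Ccna1, from 42.7 ± 0.37 to 0.423 ± 0.055. Values are mean ± SD in FPKM, n = 3. The axis, HORMA domain partner and removal lists each held 1 gene with a knockout mean under 1 FPKM, Meikin and Ccna1 among them. These genes passed the filter through the control group, where they were high, so their falls are no independent support. The lists share genes, so their counts are not separate. Hspa2 and Ccna1 are counted again among the pachytene and diplotene genes.

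Of 23 regulators of meiotic gene expression tested, 13 fell and 5 rose (median -0.23). Kctd19 and Zfp541, partners in a pachytene chromatin complex, fell from 119 ± 1.28 to 8.53 ± 0.23 and from 38.0 ± 0.24 to 6.14 ± 0.13 FPKM. Mybl1, the MYB family regulator of pachytene genes, chosen after its value was seen, fell from 18.0 ± 0.49 to 6.87 ± 0.075, and Stra8 went from 37.0 ± 0.21 to 34.4 ± 0.23. All 16 pachytene and diplotene genes tested fell (median -5.29), but 8 of them had a knockout mean under 1 FPKM and so passed the filter only through the control group, where they were high. Of 16 leptotene and zygotene genes 8 fell and 5 rose (median -0.10). The pachytene and diplotene genes kept that count under each scaling. The signs of the other 6 medians turned with scaling to the germ cell markers or to Ddx4, where the median of all rows was 1.07 and 1.39, and those of the axis list and of the leptotene and zygotene list turned with median centring as well (0.013 and 0.060). With germ cell marker scaling 3 axis and cohesin genes fell and 12 rose. The counts were then 2 and 11 for synapsis initiation and crossover genes, 3 and 14 for HORMA domain partners, 6 and 9 for removal genes, 7 and 14 for regulators and 2 and 12 for leptotene and zygotene genes. Among the somatic lists in the same libraries, 12 of 13 Sertoli cell markers and 6 of 6 Leydig cell markers tested rose, the row of Insl3 being shared with Jak3. Of 6 immune markers tested 5 rose and 1 fell, Aif1 from 12.1 ± 1.30 to 0.523 ± 0.18 FPKM. Of 7 myoid and endothelial markers 6 rose and 1 fell, Actg2 from 11.3 ± 0.15 to 1.48 ± 0.49 FPKM.

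**Figure D4:**
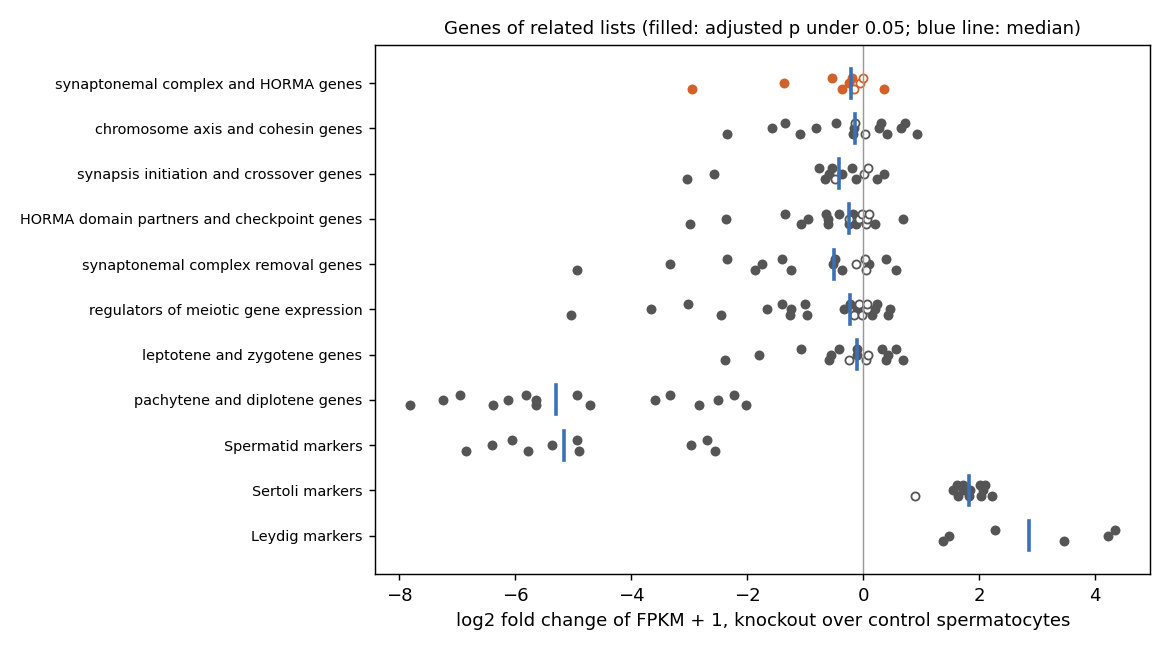
Log2 fold change of FPKM + 1 in knockout over control spermatocytes, as deposited, with 1 point per gene, grouped by list. The median of the synaptonemal complex and HORMA genes (orange) is -0.21, against -5.29 for the pachytene and diplotene genes and 1.82 for the Sertoli markers. The medians of the other meiotic lists are also near 0, and the medians near 0 turn positive when scaled to germ cell markers. Single genes spread further than the medians. Syce1, at -2.95, lies within the range of the pachytene and diplotene genes (-7.81 to -2.03).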

How the data were processed

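Values are FPKM as the authors deposited them, rounded to 2 decimals. HISAT2 2.1.0, DESeq, GRCm38 and mm10 are the tools and builds listed, per the submitters' processing notes. The sources used here do not name the quantifier, annotation release or filters. GC2 and spermatocyte tables hold different rows (25911 and 36987) and were tested apart, and levels across them were not compared. Rows without a gene name were left out (1200 and 164). Some named rows hold assembled transcripts only (1177 and 225).

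The test was limma 3.58.1 in R 4.3.3, with a variance trend, on log2(FPKM + 1), over rows with at least 1 FPKM in 3 of 6 libraries, with Benjamini-Hochberg adjustment over all rows tested and calls at adjusted p under 0.05, two-sided. The pseudocount understates changes of low genes. The labels do not name cultures or animals, so p-values measure the spread between libraries, which may be technical. The fits were tested on simulated data. Members, lists and tests were chosen with earlier results of these data known. Text names all members, up to 4 called genes per list by adjusted p, the nearest row to each member, and Phb; the nearest rows of Syce2 and 4930447C04Rik are not reported here. Positions are from GENCODE M21 on GRCm38. Python 3.11.15 with pandas 2.3.3 and matplotlib 3.10.9 made summaries and figures.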

Additional observations from a re-analysis of the deposited data

How the results depend on the processing

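In knockout spermatocytes the count of members lower was 6 and of members higher 1. Under 12 other settings, scaling to Dazl and to Tex101 included, 5 or 6 were lower and 1 was higher, and without any 1 library 6 to 7 were lower and 1 higher. Scaling to the germ cell markers gave 2 lower and 8 higher, and scaling to Ddx4 gave 1 lower and 9 higher. Scaling to Dazl, Tex101 or Ddx4 was chosen after seeing the data. The log2 fold changes that turned under the former were 1.02 for Sycp1, 0.90 for Sycp3, 1.18 for Syce2, 0.69 for Syce3, 1.05 for Tex12, 1.04 for the Hormad1 row and 1.11 for Hormad2. Under the latter they were 1.45, 1.33, 1.60, 1.11, 1.46, 1.46 and 1.51 in the same order, and 0.29 for Sycp2. Both settings divide by markers that fell in knockout. Of all calls 51.6% were higher as deposited, 59.2% with median centring, 62.0% with quantile normalization and 81.4% with germ cell marker scaling, and the median of all rows was 0.047, 0.21, 0.28 and 1.07. The number of ratios to Sycp3 without overlap was 7, and 7 or 8 under its alternatives.

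With the replicate number as a block, 6 members were lower and 1 higher, as without it. In spermatocytes the numbers showed no pairing: deviations of same-numbered libraries correlated at 0.007, -0.054 and 0.007, against -0.042 to 0.036 between different numbers. In GC2 same-numbered libraries correlated at 0.124, 0.078 and 0.061, against -0.074 to -0.001 between different numbers. A weak pairing by number in GC2 is therefore not excluded. Over all rows the block moved calls from 12672 to 12482 in spermatocytes and from 2649 to 1985 in GC2, where each library correlated best with its own number. No member was tested in both kinds of sample, so the difference between knockdown and knockout effects, with its alternatives, was not run. In GC2 no member passed the filter in any setting that had one, so those settings tell nothing of stability, and limma without the filter called 0 of 5, 2 of which had an unadjusted p under 0.05. Groups of 3 limit the precision, and for Hormad1 the shared row does.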

Other observations

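In GC2 cells some partners of the complex passed the filter although no member did. Of 11 chromosome axis and cohesin genes tested, limma called 1. That gene was Stag3, at 2.07 ± 0.20 FPKM in control and 0.523 ± 0.081 in knockdown (SD, n = 3), which passed the filter only through the control group, where it was high, so its call is no independent support. Of 10 HORMA domain partner and checkpoint genes tested, 2 fell, the checkpoint kinase gene Atr from 2.02 ± 0.082 to 1.22 ± 0.072 (limma adjusted p = 0.0060) and Brca1 from 13.8 ± 1.09 to 11.4 ± 0.14 (limma adjusted p = 0.046). Limma called 24.5% of all rows tested in GC2, so neither list held a larger share of calls than all rows. Genes of the GC2 lists were named because they were called, after their values were seen.

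Among markers of other cell types in GC2, the Sertoli cell list summed to 210 to 220 FPKM over the 6 libraries, most of it from Ctsl, a protease gene also used in many other cell types, at 186 ± 4.22 in control and 172 ± 1.30 in knockdown. Without Ctsl the list summed to 27.9 to 29.9 FPKM in control and 46.0 to 49.1 in knockdown libraries. Of 6 Sertoli cell markers tested 3 were called, all higher, where 24.5% of all rows were called. The smooth muscle actin gene Acta2 went from 93.8 ± 4.53 to 16.9 ± 0.72 FPKM in knockdown (SD, n = 3, limma adjusted p = 3.1e-05).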
